A study of Mus musculus with 4 samples.

Results

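The genes described here carry pallial glutamatergic neurogenesis, the step by which progenitors of the dorsal forebrain become excitatory neurons. They were taken by symbol from a count table of 16449 genes and are 10 in number, namely the proneural genes Neurog1 and Neurog2, Eomes and Btg2 of neurogenic progenitors, the neuronal differentiation factors Neurod1, Neurod2 and Neurod6, the early neuronal transcription factors Tbr1 and Bcl11b, and the vesicular glutamate transporter gene Slc17a6. All 10 had a row in the table, and 6 of them (Eomes, Neurod2, Neurod6, Tbr1, Bcl11b and Btg2) were abundant enough to be tested.

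Dorsal and medial palliums, the wall regions that form neocortex and hippocampus, were dissected from mouse embryos at E11.5 and measured by Nanopore long-read RNA sequencing. The 4 libraries comprised 2 labelled WT and 2 labelled Tut1 knockout. In the study all 4 are listed as homozygous for a floxed Tut1 allele, in which loxP sites flank an exon, and the knockout-labelled libraries carry Emx1-Cre in addition, which acts in progenitors of the dorsal and medial pallium and their descendants. WT therefore stands for the floxed allele without Cre, and how many embryos went into a library is not stated. The comparison asks how transcript levels differ at a stage when the knockout pallium was still described as normal in shape.

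In the developing pallium, Neurog1 and Neurog2 are basic helix-loop-helix activators that pair with E proteins on E-box sequences and commit a dividing progenitor to a neuronal fate. Committed cells switch on Eomes (also called Tbr2), which marks intermediate progenitors, and then the Neurod genes and Tbr1 as neurons form. Id and Hes proteins hold the cascade back, and Slc17a6, which encodes the transporter VGLUT2, loads glutamate into synaptic vesicles of young excitatory neurons.

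The libraries were shallow, with total counts from 305642 to 397150, so that 1 count was worth 2.66 to 3.47 CPM (counts scaled to a common library size by TMM). WT replicate 1 had 64 counts of Xist and none of 4 Y-linked genes, and the other 3 libraries had 0 counts of Xist and 41 to 78 counts of the Y-linked genes, so sex also differed between libraries. Tut1, which encodes the uridylyltransferase that extends the U6 snRNA 3′ end, had 6 and 11 counts in WT against 29 and 25 in the knockout-labelled libraries, which goes against a loss of the transcript (log2 fold change 1.71 ± 0.40, edgeR adjusted p = 0.0113). A count over the whole gene does not show the floxed exon, so every direction given here follows the labels alone. Markers of the tissue were mixed. Pax6 had 93 to 137 counts and Lhx2 106 to 348, but Emx1, a defining gene of the dorsal pallium, had only 1 to 7. These samples are bulk tissue, in which fewer cells of a type and less RNA per cell cannot be told apart.

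Summed over the 10 genes, the neurogenesis transcripts made up 370 and 282 CPM in WT replicates 1 and 2, and 502 and 570 CPM in knockout-labelled replicates 1 and 2. Both knockout-labelled libraries thus lay above both WT libraries. The sum rested on 122 and 101 counts in WT and on 189 and 164 in the knockout-labelled libraries, and Eomes alone supplied 40.2% to 45.1% of them. Without Eomes the other 9 genes summed to 203 and 156 CPM in WT and to 292 and 340.4 CPM in the knockout-labelled libraries, in the same order.

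**Figure D1:**
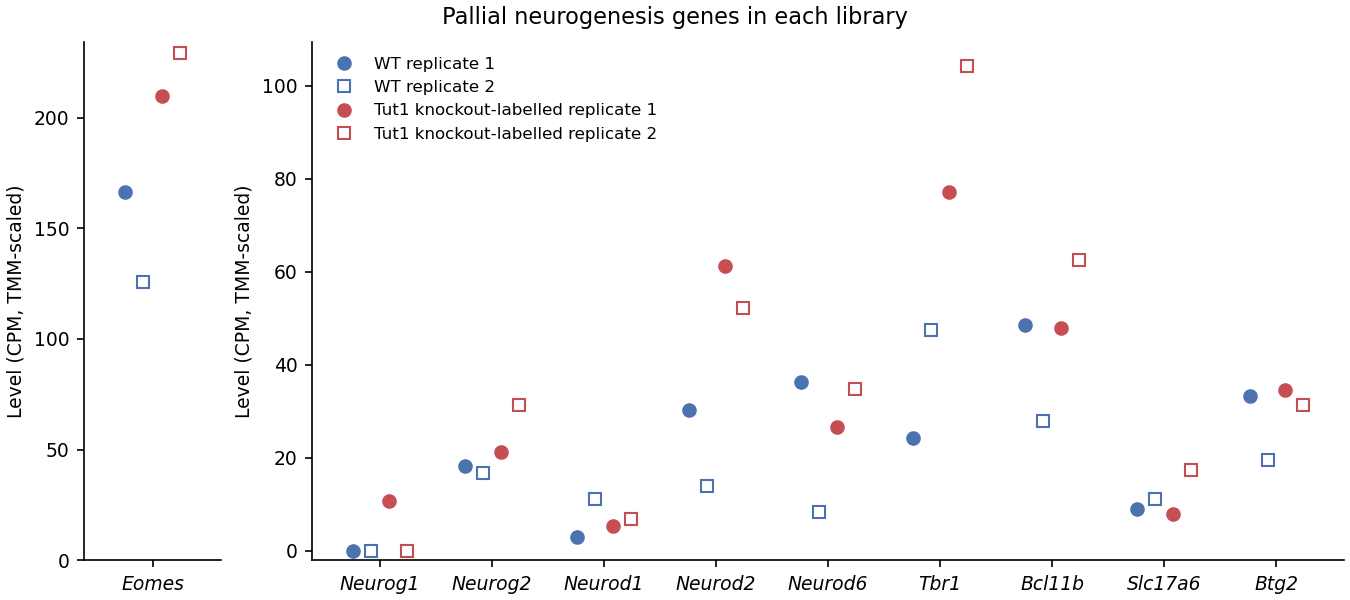
Level of each neurogenesis gene in CPM (vertical axes, Eomes on its own scale) in the 4 libraries, with blue for WT, red for Tut1 knockout-labelled, filled circles for replicate 1 and open squares for replicate 2. Both red symbols lie above both blue symbols for Eomes, Neurog2, Neurod2 and Tbr1, and overlap them for the other 6 genes.

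The proneural genes were near the limit of detection. Neurog2 (ENSMUSG00000027967; GRCm38 chromosome 3, 127633135 to 127635631, + strand) had 6 and 6 counts in WT, or 18.2 and 16.8 CPM, and 8 and 9 counts in the knockout-labelled libraries, or 21.3 and 31.3 CPM. The groups did not overlap, but knockout-labelled replicate 1 lay only a few CPM above WT replicate 1. The ratio of the summed counts, knockout-labelled over WT, was 1.47 with a 95% interval of 0.661 to 3.37 (exact binomial, counting error only), so neither a fall nor a rise could be told at this depth. Neurog1 (ENSMUSG00000048904; chromosome 13, 56250478 to 56252163, - strand), its close relative, had 0 counts in both WT libraries, 4 counts in knockout-labelled replicate 1 and 0 in knockout-labelled replicate 2. Its presence in 1 library of 4 gives no difference between the groups, and the 3 counts that a count of 0 allows correspond to 9.09 and 8.38 CPM in WT and to 10.4 CPM in knockout-labelled replicate 2.

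Eomes (ENSMUSG00000032446; chromosome 9, 118478212 to 118486132, + strand), the T-box factor of intermediate progenitors, had the most counts of the 10 genes. Its 55 and 45 counts in WT corresponded to 167 and 126 CPM, and its 79 and 66 counts in the knockout-labelled libraries to 210 and 229 CPM. The groups did not overlap, and the gap between WT replicate 1 and knockout-labelled replicate 1 was similar to the gap between the WT libraries. The log2 fold change was 0.59 ± 0.24 (SE), or 1.50-fold with a 95% interval of 1.08 to 2.10, and it did not pass the threshold over all genes (edgeR quasi-likelihood test, adjusted p = 0.224). Per count of Pax6, which marks the stem cells that precede this stage, Eomes gave 0.401 and 0.378 counts in WT against 0.598 and 0.710 in the knockout-labelled libraries. Gm33460, a non-coding gene on the opposite strand that overlaps Eomes, had 8 and 8 counts in WT against 2 and 5 in the knockout-labelled libraries, and as the counting of strand is not stated, reads could have passed between the 2 genes.

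Btg2 (ENSMUSG00000020423; chromosome 1, 134075170 to 134079120, - strand) encodes an antiproliferative protein that marks neurogenic divisions and is also a known target of p53. It had 11 and 7 counts in WT, at 33.3 and 19.6 CPM, and 13 and 9 counts in the knockout-labelled libraries, at 34.6 and 31.3 CPM. WT replicate 1 lay between the knockout-labelled libraries, so the groups overlapped. The difference, 0.33 ± 0.49 in log2 fold change (edgeR adjusted p = 0.842), spans a fold of 0.636 to 2.50 at 95% confidence. Of its relatives and their deadenylase partners (Btg1, Btg3, Tob1, Tob2, Cnot7 and Cnot8), 2 of 6 were abundant enough to test and 0 were called by edgeR or limma-voom, or by DESeq2, which gave an adjusted p for 1 of them. At an unadjusted p below 0.05 in edgeR there were 0. Cnot7 stood at 0.38 ± 0.26 in log2 fold change (edgeR adjusted p = 0.563) and Cnot8 at -0.10 ± 0.50 (adjusted p = 0.961).

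The Neurod genes follow the proneural genes and drive neuronal differentiation, and the difference between their changes was not tested. Neurod2 (ENSMUSG00000038255; chromosome 11, 98325415 to 98329648, - strand) had 10 and 5 counts in WT, at 30.3 and 14.0 CPM, and 23 and 15 counts in the knockout-labelled libraries, at 61.1 and 52.1 CPM. Both knockout-labelled libraries lay well above both WT libraries. The log2 fold change was 1.37 ± 0.45, or 2.59-fold with a 95% interval of 1.38 to 4.84, and was not past the threshold over all genes (edgeR adjusted p = 0.0999).

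Neurod6 (ENSMUSG00000037984; chromosome 6, 55677822 to 55681263, - strand) had 12 and 3 counts in WT, at 36.4 and 8.38 CPM, and 10 and 10 counts in the knockout-labelled libraries, at 26.6 and 34.7 CPM. Its highest and its lowest library were both WT, so the groups overlapped fully. The log2 fold change, 0.46 ± 0.56 (edgeR adjusted p = 0.801), turned to -0.28 when WT replicate 2 was left out. Neurod1 (ENSMUSG00000034701; chromosome 2, 79452521 to 79456751, - strand) had 1 and 4 counts in WT against 2 and 2 in the knockout-labelled libraries, a ratio of summed counts of 0.829 with an interval of 0.165 to 3.85 (95%, exact binomial, counting error only). Cerkl, which overlaps it on the same strand, had 0 counts in all 4 libraries.

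Tbr1 (ENSMUSG00000035033; chromosome 2, 61802930 to 61814114, + strand), a T-box factor of early-born cortical neurons that is also made by Cajal-Retzius cells, gave the smallest adjusted p of the 6 neurogenesis genes tested. It had 8 and 17 counts in WT, at 24.2 and 47.5 CPM, and 29 and 30 counts in the knockout-labelled libraries, at 77.1 and 104 CPM. The groups did not overlap, although WT replicate 2 was nearly as far above WT replicate 1 as it was below knockout-labelled replicate 1. The log2 fold change was 1.29 ± 0.37, or 2.45-fold with a 95% interval of 1.45 to 4.14, and lay just outside the threshold (edgeR adjusted p = 0.0563). Its adjusted p was 0.0195 without WT replicate 2, 0.0484 with scaling by total counts alone and 0.0421 with a filter of 10 counts in 2 libraries, but 0.365 without WT replicate 1, and 0.262 and 0.371 without knockout-labelled replicates 1 and 2. Each fit without 1 library leaves a group of 1, which is assumed to vary like the other group.

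Bcl11b (ENSMUSG00000048251; chromosome 12, 107910403 to 108003602, - strand), also called Ctip2, specifies deep-layer neurons that project below the cortex and is made by striatal neurons as well. It had 16 and 10 counts in WT, at 48.5 and 27.9 CPM, and 18 and 18 counts in the knockout-labelled libraries, at 47.8 and 62.5 CPM. WT replicate 1 slightly exceeded knockout-labelled replicate 1, and the log2 fold change was 0.52 ± 0.40 (edgeR adjusted p = 0.623), with a fold between 0.817 and 2.52 at 95% confidence. Slc17a6 (ENSMUSG00000030500; chromosome 7, 51622006 to 51671119, + strand) had 3 and 4 counts in WT against 3 and 5 in the knockout-labelled libraries. The ratio of its summed counts was 1.18 with an interval of 0.375 to 3.84 (95%, exact binomial, counting error only), too wide to tell a difference.

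Across the 6 genes tested, 0 passed an adjusted p of 0.05 in edgeR, where 2.06% of all 5878 tested genes did, 1.4% higher and 0.663% lower in the knockout-labelled libraries. A fold change above 2 was fitted for Tbr1 and Neurod2, and for 3.91% of all tested genes. At an unadjusted p below 0.05 there were 3, Tbr1, Neurod2 and Eomes, all higher in the knockout-labelled libraries, where the share of all tested genes higher at this p was 7.88%. limma-voom also called 0 of the 6, with 3 of them at an unadjusted p below 0.05. DESeq2 gave an adjusted p only for Eomes (0.953) and none for the other 5, which its filter on low mean counts left out, so these could not have been called, and 1 of the 6 was at an unadjusted p below 0.05. Of all 10 genes, 4 had both knockout-labelled libraries above both WT libraries, 3 of them among the 6 tested, and 0 had them below. Among all tested genes the first of these patterns was found in 22.1% and the second in 20.8%. The log2 fold change was above 0 in 6 of 6 tested genes, with a median of 0.55, against 48.4% and a median of -0.01 over all tested genes. The filter bears on such counts. It asked for 26.5 CPM in at least 2 libraries, on CPM from total counts before TMM scaling, and Tbr1, Neurod2, Bcl11b and Btg2 each passed it with both knockout-labelled libraries and 1 WT library above its limit, and Neurod6 with 1 library of each group.

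**Figure D2:**
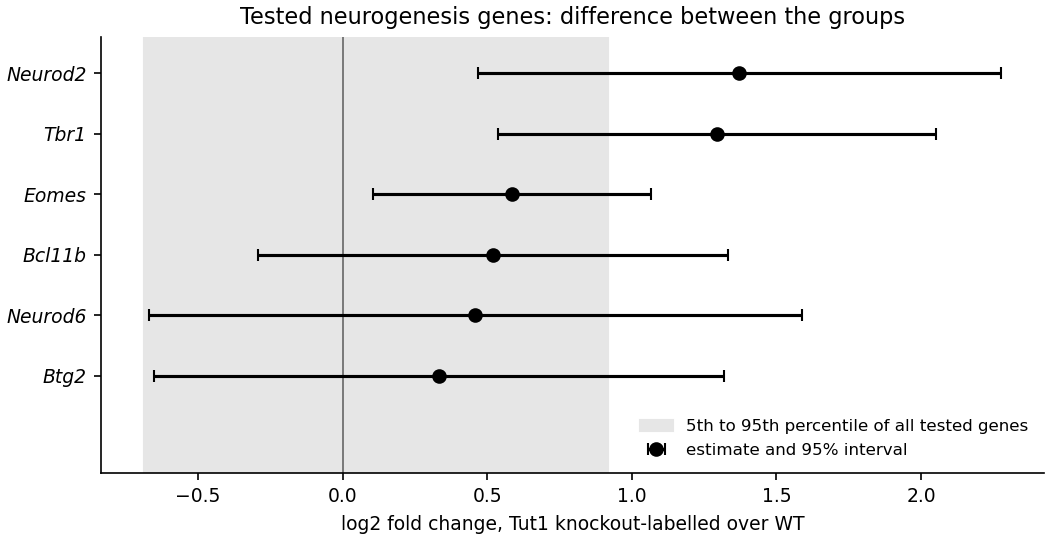
Log2 fold change of the 6 tested neurogenesis genes (horizontal axis, Tut1 knockout-labelled over WT), with points for edgeR estimates, bars for 95% intervals and a grey band from -0.69 to 0.92 for the 5th to 95th percentile of all tested genes. Neurod2 and Tbr1 lie outside the band, and the intervals of Bcl11b, Neurod6 and Btg2 include 0.

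The WT libraries moved these results in opposite ways. WT replicate 2 was lower than WT replicate 1 in Neurod2, Neurod6, Eomes, Bcl11b and Btg2, but higher in Tbr1. Without WT replicate 1, the only library with Xist counts, the median log2 fold change of the 6 genes was 0.92, Neurod2 stood at 2.00, Neurod6 at 1.80, Bcl11b at 0.94 and Tbr1 at 0.90. Without WT replicate 2 the median was 0.27, Neurod2 stood at 0.89 and Tbr1 at 1.85, Eomes at 0.38, Bcl11b at 0.16 and Btg2 at -0.02. The early neuronal genes were also set against Eomes, the intermediate progenitor gene, with no test. Tbr1 gave 0.145 and 0.378 counts per Eomes count in WT and 0.367 and 0.455 in the knockout-labelled libraries, so WT replicate 2 lay above knockout-labelled replicate 1. Neurod2 gave 0.182 and 0.111 counts per Eomes count in WT against 0.291 and 0.227 in the knockout-labelled libraries, without overlap.

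To compare genes with each other, levels were divided by the length of the longest annotated transcript. Whether long-read counts grow with transcript length was not tested, so the order by CPM alone is also given below. Averaged over the 4 libraries, Eomes stood first at 51.4 CPM per kb, and its lowest library (35.3) lay above the highest of Tbr1 (26.2). Tbr1 followed at 15.9 CPM per kb, Neurod2 at 12.5, Neurod6 at 12.3, Btg2 at 10.8, Neurog2 at 9.82 and Bcl11b at 5.76. Slc17a6 (2.76), Neurod1 (2.42) and Neurog1 (1.58) came last. Within WT alone the order after Eomes (41.1) was Neurod6 (10.4), Btg2 (9.64), Tbr1 (9.02), Neurog2 (7.84) and Neurod2 (7.04), and within the knockout-labelled libraries Tbr1 (22.8), Neurod2 (18.0), Neurod6 (14.3), Btg2 (12) and Neurog2 (11.8) followed Eomes (61.7), all in CPM per kb. Apart from the step between Eomes and Tbr1, the libraries of each gene overlapped those of the next in this order. Bcl11b depends most on the length chosen, since its longest transcript of 8111 nt moved it from place 3 by CPM to place 7 per kb. Without division by length, Eomes (183 CPM) and Tbr1 (63.2) were followed by Bcl11b (46.7), Neurod2 (39.4), Btg2 (29.7), Neurod6 (26.5) and Neurog2 (21.9). Slc17a6 (11.4), Neurod1 (6.62) and Neurog1 (2.66) again came last.

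**Figure D3:**
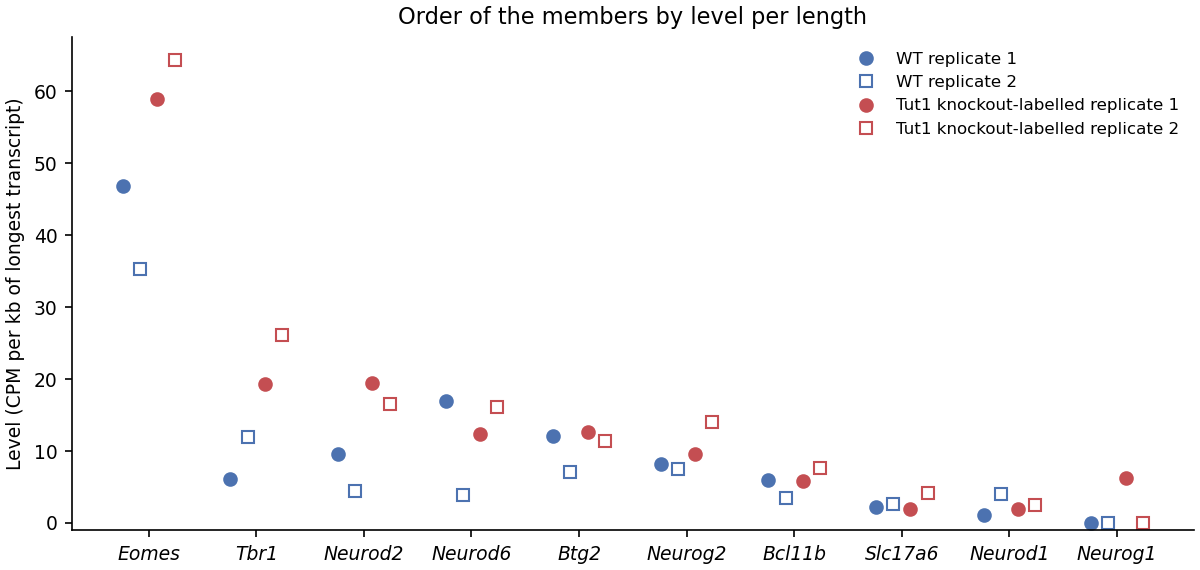
Level of each neurogenesis gene in CPM per kb of its longest annotated transcript (vertical axis), ordered from left to right by the mean over the 4 libraries, with symbols as in the plot of CPM. Eomes stands alone at 35.3 to 64.4 CPM per kb, and neighbouring genes from Tbr1 onward overlap.

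The number of exons, which was not used to choose the genes, varied from 1 to 12. In 6 of the 10 (Neurog1, Neurog2, Neurod1, Neurod2, Neurod6 and Btg2) the longest annotated transcript has 1 or 2 exons, as in 13.2% of the 12799 protein-coding genes in the table. Protein-coding genes of this kind had a median of 12 counts summed over the 4 libraries and 30.0% of them could be tested, against 29 counts and 45.0% for genes with 3 or more exons. The part of exon number in the low counts of these genes was not tested.

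Promoter sequences were examined for letters that the genes might share. RefSeq windows on GRCm38.p6, from 250 bases before to 50 after each annotated start, were found for all 10 genes, with an extra start for Slc17a6. The stretches before the first annotated exon are shown for Neurog2, Eomes and Neurod2, whose groups did not overlap, and for Neurod6, the relative of Neurod2 whose groups did. That of Tbr1 lies within an annotated exon and is not shown. Capitals mark E-boxes (CANNTG, which reads alike on both strands) and T-box cores (GGTGTG on either strand).
Neurog2, chr3:127632886-127633134, + strand: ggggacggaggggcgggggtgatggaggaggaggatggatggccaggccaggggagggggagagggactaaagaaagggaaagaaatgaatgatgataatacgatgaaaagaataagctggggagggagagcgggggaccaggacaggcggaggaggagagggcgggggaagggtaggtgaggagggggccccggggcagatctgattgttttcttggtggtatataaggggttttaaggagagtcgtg
Eomes, chr9:118477939-118478188, + strand: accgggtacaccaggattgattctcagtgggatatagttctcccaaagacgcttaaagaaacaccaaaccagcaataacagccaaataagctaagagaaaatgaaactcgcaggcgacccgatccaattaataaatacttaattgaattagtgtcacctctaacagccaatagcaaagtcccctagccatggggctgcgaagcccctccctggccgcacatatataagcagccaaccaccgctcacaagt
Neurod2, chr11:98329649-98329895, - strand: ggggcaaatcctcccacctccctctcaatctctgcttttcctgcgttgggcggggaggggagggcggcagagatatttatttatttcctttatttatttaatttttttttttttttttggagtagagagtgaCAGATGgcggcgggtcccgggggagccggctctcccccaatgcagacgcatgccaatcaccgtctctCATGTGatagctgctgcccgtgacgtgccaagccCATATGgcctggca
Neurod6, chr6:55681264-55681513, - strand: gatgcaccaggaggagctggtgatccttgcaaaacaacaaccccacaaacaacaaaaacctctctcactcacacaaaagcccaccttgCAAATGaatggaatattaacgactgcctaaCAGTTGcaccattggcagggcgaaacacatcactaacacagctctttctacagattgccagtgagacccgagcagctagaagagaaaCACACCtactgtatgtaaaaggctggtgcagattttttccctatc

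Neurod2 held 3 E-boxes, beginning 118, 51 and 17 bases before the start, and the first of them, CAGATG, is of the kind that Neurog and Neurod proteins are known to bind. Neurod6 held 2 E-boxes, 162 and 132 bases before the start, and 1 T-box core at 45 bases, while the windows of Neurog2 and Eomes held none of these letters. Over the whole 300-base windows, 6 of the 10 genes had an E-box, where 72.3% of 32851 RefSeq windows have one. CAGATG on either strand was found in 2 of the 10 genes, Neurod2 and the second window of Slc17a6, and in 17.2% of all windows. CAGCTG was found in 0 of the 10 genes and in 16.3% of all windows. The T-box core was found in 1 gene and in 19.0% of windows, and a p53 half-site, a 10-base motif searched for Btg2, in 0 of the 10 genes and in 8.36% of windows. Among the 4 genes whose groups did not overlap, Neurod2 and Tbr1 held an E-box and Neurog2 and Eomes held 0.

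The partners and inhibitors of the proneural factors were then listed. E proteins, the obligate partners of Neurog and Neurod factors, are encoded by Tcf3, Tcf4 and Tcf12, and 1 of the 3 was called. Tcf4 fell from 285 and 235 counts in WT to 139 and 158 in the knockout-labelled libraries, with a log2 fold change at -0.74 ± 0.18 (edgeR adjusted p = 0.0124). Tcf3 had a log2 fold change of -0.44 ± 0.24 and Tcf12 of -0.04 ± 0.24, neither past the threshold. The call of Tcf4 was lost without WT replicate 1 (-0.54, adjusted p = 0.291) and without knockout-labelled replicate 1 (-0.47, adjusted p = 0.480), and DESeq2 did not make it (adjusted p = 0.236). Of 8 inhibitors (Id1, Id2, Id3, Id4, Hes1, Hes5, Hey1 and Rest), 3 could be tested and 0 were called by edgeR, with 1 at an unadjusted p below 0.05, and 0 by limma-voom or by DESeq2, which gave an adjusted p for 1 of the 3. Id3 had 4 and 9 counts in WT against 20 and 9 in the knockout-labelled libraries (log2 fold change 1.19 ± 0.50, adjusted p = 0.244), and Rest, which represses neuronal genes outside neurons, had 70 and 59 against 58 and 42 (-0.32 ± 0.24, adjusted p = 0.611).

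Genes that act downstream of or beside the proneural factors gave little. Of 18 listed, 15 had a row, 9 could be tested and 0 were called by edgeR, with 2 at an unadjusted p below 0.05 and a median log2 fold change of 0.33. limma-voom called 0 of them as well, and so did DESeq2, with an adjusted p for 2 of the 9. The RNA-binding protein gene Elavl4 had 43 and 46 counts in WT against 66 and 55 in the knockout-labelled libraries (log2 fold change 0.50 ± 0.24, edgeR adjusted p = 0.349). Rcor2, which encodes a corepressor of progenitors, had 14 and 30 against 14 and 8 (-0.94 ± 0.41, adjusted p = 0.262). Among 12 factors of cortical projection neuron identity, 8 could be tested and 1 was called. Mef2c, which encodes a transcription factor of neurons that is also made by microglia and endothelial cells, rose from 16 and 19 to 43 and 36 counts (1.22 ± 0.31, edgeR adjusted p = 0.0260). Of 6 genes for glutamate transport and synthesis, 3 could be tested and 1 was called. Slc1a2, a glutamate uptake transporter of glia and their progenitors, rose from 5 and 6 to 32 and 17 counts (2.17 ± 0.45, edgeR adjusted p = 0.00381), while Slc17a7, another cortical vesicular transporter, had 0 or 1 counts in each library. Mef2c was called by limma-voom but not by DESeq2 (adjusted p = 0.519), and Slc1a2 was not called by limma-voom (adjusted p = 0.0518) and got no adjusted p from DESeq2. With 1 library left out, which leaves a group of 1, Mef2c kept a log2 fold change of 1.15 to 1.29 but was not called (edgeR adjusted p from 0.0631 to 0.248), and Slc1a2 was not called without knockout-labelled replicate 1 (1.86, adjusted p = 0.306).

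Pan-neuronal markers, which are not particular to glutamatergic cells, were set beside the 10 genes. They summed to 1469 and 1411 CPM in WT and to 2277 and 2056 CPM in the knockout-labelled libraries. The largest part came from Map2, with 754 and 690 CPM in WT against 845 and 716 CPM in the knockout-labelled libraries. Its log2 fold change was only 0.12 ± 0.15 (edgeR adjusted p = 0.815), so the sums understate the change of most other markers. Of 8 tested, 8 had a log2 fold change above 0, with a median of 0.91, and 2 were called, Mapt (1.83 ± 0.22, edgeR adjusted p = 8.85e-07), which encodes tau, and Dcx (1.17 ± 0.24, adjusted p = 0.00461), which marks migrating young neurons. limma-voom called 3 of the 8. Mapt remained past the threshold whichever library was left out, and Dcx did not without either knockout-labelled library (1.21 and 1.12, adjusted p = 0.160 and 0.0899) or in DESeq2 (adjusted p = 0.152). Per 100 CPM of these markers the neurogenesis genes made up 25.2 and 20.0 CPM in WT and 22.1 and 27.7 CPM in the knockout-labelled libraries, so relative to all neuronal markers the groups overlapped. Stmn2, a growth-cone gene, had a change close to that of Tbr1 (1.21 ± 0.35, edgeR adjusted p = 0.0563).

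**Figure D4:**
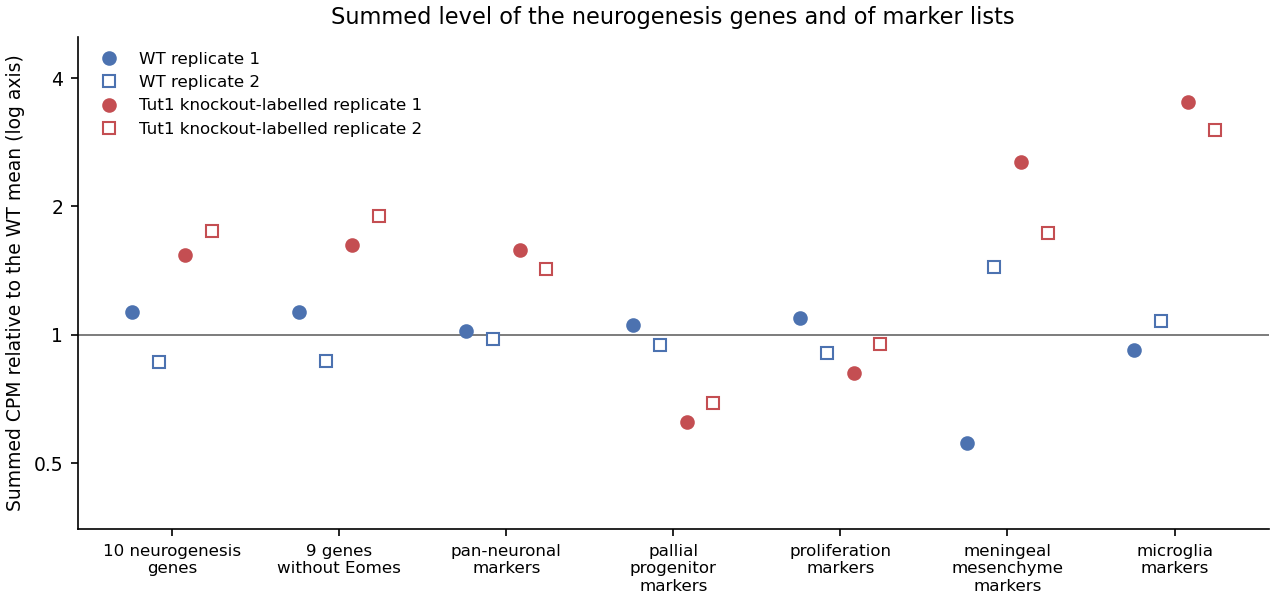
Summed CPM of the neurogenesis genes and of marker lists in each library, divided by the mean of the WT libraries (vertical axis, log scale), with symbols as in the plot of CPM. The neurogenesis genes stand at 1.54 and 1.75 and pan-neuronal markers at 1.58 and 1.43 in the knockout-labelled libraries, pallial progenitor markers at 0.624 and 0.691 (0.869 and 0.914 without Lhx2), and microglia markers at 3.52 and 3.02. Map2 is the largest part of the pan-neuronal sum in each library, and Ccnd2 that of the proliferation sum.

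Markers of other cells and states moved between the same libraries, and their part in the values above was not tested. Pallial progenitor markers summed to 2181 and 1958 CPM in WT and 1292 and 1431 CPM in the knockout-labelled libraries, and 1 of 7 tested, Lhx2, was called lower (-1.49 ± 0.18, edgeR adjusted p = 6.48e-07). Without Lhx2 they summed to 1127 and 1198 CPM in WT and 1010 and 1063 CPM in the knockout-labelled libraries, so Lhx2 made up most of the difference. The other 6 tested did not pass the threshold in edgeR, from Emx2 (48 and 62 against 23 and 31 counts, -0.96 ± 0.28, edgeR adjusted p = 0.0639) and Sox2 (-0.60 ± 0.42) through Pax6 (-0.14 ± 0.19), Nes (-0.04 ± 0.19) and Vim (0.06 ± 0.23) to Fabp7 (0.66 ± 0.50). limma-voom called Emx2 as well (adjusted p = 0.0445). Emx1, too low to test, had 6 and 7 against 1 and 2 counts. The study names its Cre line as an allele of Emx1 itself, carried only by the knockout-labelled libraries. For this gene, effects of the allele and of the tissue cannot be told apart. Of 10 proliferation markers, 9 had a log2 fold change below 0 and 2 were called lower, Mki67 (-0.74 ± 0.18, edgeR adjusted p = 0.0173) and Cenpf (-0.48 ± 0.12, adjusted p = 0.0287). DESeq2 called 0 of the 10, with an adjusted p for 8. The summed levels of the list overlapped at 9654 and 7999 CPM in WT and 7199 and 8388 CPM in the knockout-labelled libraries. Most of each sum came from Ccnd2, with 5343 and 4209 CPM in WT and 4329 and 5227 CPM in the knockout-labelled libraries. Its log2 fold change was -0.0002 ± 0.10, so the overlap says little of the other markers. Lhx2 was not called without knockout-labelled replicate 1 (-1.30, edgeR adjusted p = 0.0539), Mki67 was not called when any library but WT replicate 2 was left out (-0.51 to -0.76, adjusted p from 0.202 to 0.388), and Cenpf was not called with any 1 library left out (-0.37 to -0.59, adjusted p from 0.0741 to 0.379). Cajal-Retzius markers, whose cells also make Tbr1, summed to 3 and 2 counts in WT and to 17 and 8 in the knockout-labelled libraries, with Reln at 0 and 0 against 4 and 3, and none was abundant enough to test.

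Ventral and GABAergic markers summed to 5 and 27 counts in WT and to 72 and 28 in the knockout-labelled libraries, where Dlx1 rose (2.59 ± 0.55, edgeR adjusted p = 0.00494) and Gad2 had 0 and 8 against 16 and 11 counts. Diencephalic markers, whose neurons also use Slc17a6, summed to 39 and 52 counts in WT against 65 and 25 in the knockout-labelled libraries, and 0 of 2 tested were called by edgeR, with 0 at an unadjusted p below 0.05 and 0 called by limma-voom or by DESeq2, which gave an adjusted p for 1. Among cortical hem and choroid plexus markers, Ttr, the transthyretin gene of choroid plexus, was called higher (31 and 26 against 114 and 29 counts, 1.33 ± 0.32, edgeR adjusted p = 0.0152). Wnt8b, the other gene tested of this list, had 7 and 47 against 15 and 7 counts and was not called, and the list's sums overlapped at 133 and 232 CPM in WT and 359 and 142 CPM in the knockout-labelled libraries. Meningeal markers summed to 103 and 265 CPM in WT and 468 and 320 CPM in the knockout-labelled libraries, with Col1a2 called higher, and endothelial markers to 45.4 and 61.4 against 112 and 104 CPM, with 0 of 1 tested called by edgeR or limma-voom, none at an unadjusted p below 0.05 and no adjusted p from DESeq2. Microglia markers summed to 66.6 and 78.2 CPM against 255 and 219 CPM, with Cx3cr1 and Csf1r called higher of 2 tested, although C1qa, C1qb and C1qc had 0 to 5 counts in each library. Red cell markers overlapped at 800 and 1109 CPM in WT and 1262 and 868 CPM in the knockout-labelled libraries, with Hbb-bh1 called lower and Hba-x at 15 and 24 against 43 and 36 counts (1.07 ± 0.31, edgeR adjusted p = 0.0563). limma-voom called 2 of the 4 red cell markers tested. DESeq2 called 0 genes of the ventral, hem, meningeal, microglia and red cell lists. It gave an adjusted p for 0 of 2, 1 of 2, 1 of 4, 1 of 2 and 3 of 4 of their tested genes. Without knockout-labelled replicate 1 Dlx1, Ttr, Col1a2, Cx3cr1, Csf1r and Hbb-bh1 were not called, with Ttr at 0.28 (edgeR adjusted p = 0.864) and Cx3cr1 at 2.40 (adjusted p = 0.0741). The fold of Dlx1 was 1.66 on the log2 scale without WT replicate 1, and without WT replicate 2 the WT group stood at 0 counts, so that no fold can be given. Dlx1, Col1a2 and Csf1r were also not called without WT replicate 1 or knockout-labelled replicate 2, Hbb-bh1 without WT replicate 2 or knockout-labelled replicate 2, and Ttr without WT replicate 2.

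**Figure D5:**
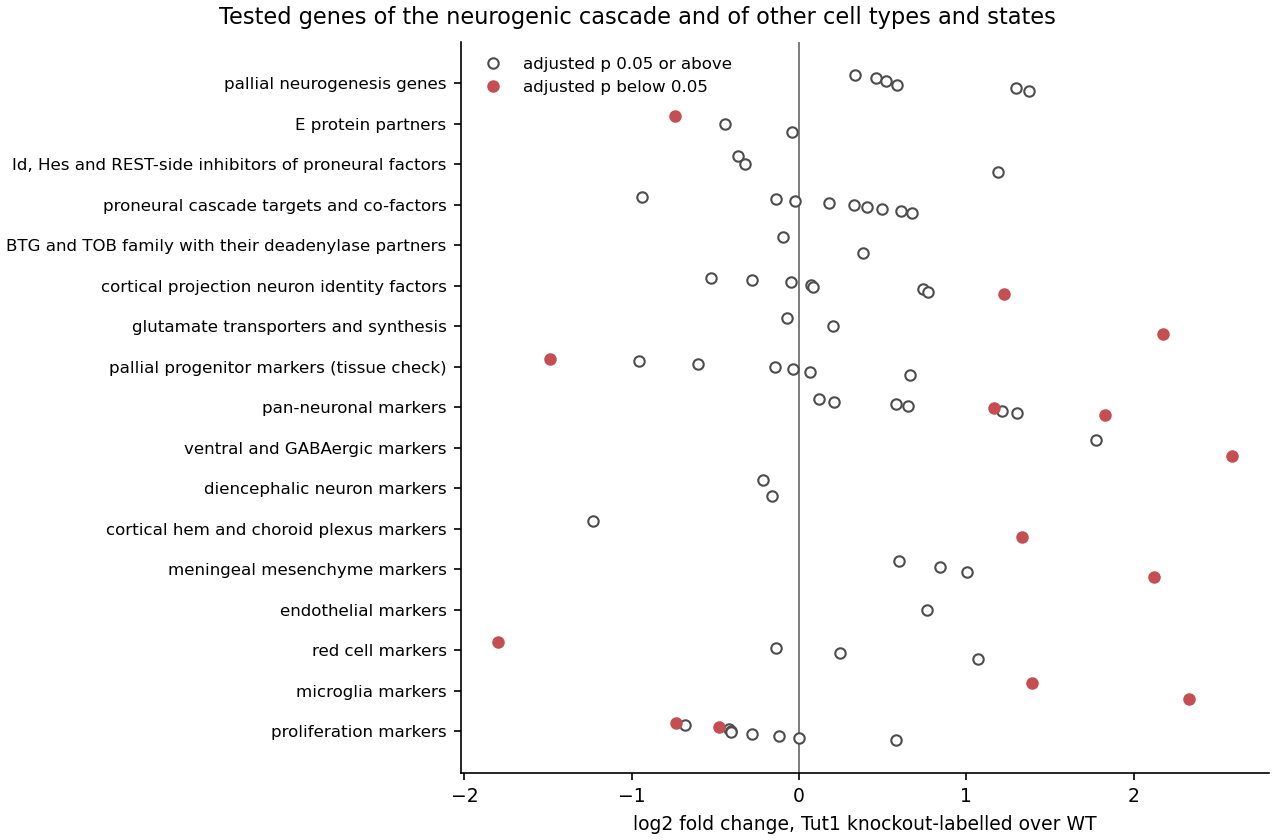
Log2 fold change (horizontal axis, Tut1 knockout-labelled over WT) of each tested gene of the neurogenesis set and of the other lists (rows), red where the edgeR adjusted p was below 0.05 and open otherwise. The 6 neurogenesis genes lie from 0.33 to 1.37 with none called, and the pan-neuronal markers all lie above 0 with 2 called.

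The genes whose profile over the 4 libraries came nearest to the median profile of the 6 tested genes were Fabp7, Ecsit, Sorbs2, Commd3 and Cpeb4, at Euclidean distances of 0.0611 to 0.121 in centred log2 CPM. Fabp7, the fatty acid binding protein gene of radial glia, had 9 and 6 counts in WT against 12 and 11 in the knockout-labelled libraries. Sorbs2, with the most counts of the 5, had 84 and 66 against 120 and 106 counts (log2 fold change 0.64 ± 0.20, edgeR adjusted p = 0.0893). With 4 libraries such nearness is a description only. Among the neurogenesis genes themselves Eomes (0.136) and Bcl11b (0.179) lay nearest to this profile and Tbr1 (1.17) farthest.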

How the data were processed

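Raw read counts per gene were deposited by the authors for 4 libraries of poly(A)-enriched RNA, read on the Nanopore platform. The submitters' processing notes name GRCm38, minimap2 2.24, Ensembl 102 and FLAIR 2.0.0. Neither the summing of isoforms, nor the assignment of shared reads, nor the use of strand is stated. The deposited counts sum to far fewer than the reads the study lists per library, and which reads were left out is not stated. Columns were matched to samples by the sample descriptions. Symbols, positions and transcripts came from GENCODE M21 (GRCm38), which matched 16429 of 16449 identifiers.

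Counts were tested with edgeR 4.0.16 in R 4.3.3 (filterByExpr at its defaults of 10 counts and a total of 15, TMM, glmQLFit and glmQLFTest, two-sided, no covariate), with Benjamini-Hochberg adjustment over 5878 genes and a threshold of 0.05. Standard errors were obtained from the fold change and its F statistic. The biological coefficient of variation was 10.5%, with 2 residual and 37.5 prior degrees of freedom. Replicates differed by more than counting noise (chi-square per degree of freedom 1.64 for WT, 1.49 for knockout-labelled). Nothing says that they came from separate embryos, so p-values measure the spread between libraries, which may be technical. An exact permutation of 2 against 2 libraries cannot go below p = 0.333 and was not used. The fit was tested on simulated counts. Intervals of count ratios and limits from 3 counts cover counting error only.

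Alternatives were RLE and total-count scaling, other filters, DESeq2 1.42.0, limma-voom (limma 3.58.1), a block on replicate number, omission of 1 library at a time, thinning to 305642 counts and removal of the trend on transcript length (loess, span 0.5). The 10 genes, the other gene lists and the tests were chosen with earlier results of these data known. Always named were the 10 genes and Tut1. From each list at most 3 called genes were named, or at most 2 by smallest p where none was called, and the 5 genes nearest in profile. Further list members (Pax6, Emx1, Emx2, Sox2, Nes, Vim, Wnt8b, Hba-x, Reln, Gad2, Stmn2, Map2, Ccnd2, Slc17a7, Tcf3, Tcf12, C1qa, C1qb and C1qc), and Gm33460, Cerkl and the sex-linked genes were added after their values were seen. Of the listed genes, those without a row in the table were not analysed here, and 1 marker is not reported.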

Additional observations from a re-analysis of the deposited data

How the results depend on the processing

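Counts of calls depended on the setting. Over all genes edgeR called 121, against 12 in DESeq2 (which gave an adjusted p for 2915 of 5878 genes), 76 with the replicate number as a block and 44 after thinning to the smallest library, and leaving out 1 library gave 3 to 108. Of the neurogenesis genes, 0 were called, but Tbr1 was called with scaling by total counts alone and with a filter of 10 counts in 2 libraries (1 gene each), and leaving out 1 library gave 0 to 1. Among the other lists 9 genes were called higher and 5 lower, against 1 and 1 in DESeq2 and 5 and 1 after thinning. Leaving out 1 library gave 1 to 11 higher and 0 to 3 lower.

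The median log2 fold change of the 6 tested genes ranged from 0.27 to 0.92 when 1 library was left out. Of 73 values of single genes with an adjusted p under an alternative, 68 kept their direction and side of the threshold and 3 passed it, all of Tbr1 (1.36, 1.29 and 1.85 on the log2 scale). A further 5, from DESeq2, had no adjusted p and kept their direction. The remaining 2 of the 73 changed sign, both without WT replicate 2, Neurod6 to -0.278 and Btg2 to -0.0204, and with 1 library left out they reached 1.8 and 0.741. In the order of levels, 5 of 10 genes kept their place with the median length of coding transcripts and 6 without division by length. Replicate numbers are not stated to pair the libraries, and deviations of same-numbered libraries correlated at -0.0614. The block called 0 neurogenesis genes. Apart from the construction of each alternative, such as fewer libraries, the cause of these changes was not tested.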
